A study of Mus musculus with 8 samples.

Results

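The transcriptional response to LPS was examined in mouse peritoneal macrophages that had received vehicle and no test compound. It was read from 4 of the 8 RNA samples of the study. The macrophages came from male C57BL/6 mice aged 6 to 8 weeks, were drawn into the peritoneal cavity with thioglycollate and were flushed out 72 h later. In the NC group (2 samples) the cells received vehicle, given in the labels as DMSO. In the LPS group (2 samples) vehicle was followed by 100 ng/ml LPS for 4 h. The other 4 samples had received the compound C498, with or without LPS, and entered the comparison of LPS with NC only through the shared estimate of the spread between replicates and the mean level a gene needed to be tested. Nothing in the labels says whether the 2 samples of a group came from separate mice or cultures, so p-values measure only the spread between these samples, which may be technical. Levels were deposited as TPM (reads per transcript length, scaled to a fixed total per sample), so that read depth is unknown.

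Of 55801 listed genes, 12189 had a mean of at least 1 TPM over the 8 samples and were tested. A gene was called when its fold change on the log2(TPM + 1) scale was at least 2 and its adjusted p, from limma with Benjamini-Hochberg adjustment, was at most 0.05. Values below are given as replicate 1 and replicate 2 of each group, and changes are LPS minus NC in log2(TPM + 1), a scale that understates the change of genes near 0. Unless stated, and apart from genes named only as chromosomal neighbours, a named called gene kept its call under each of the 17 alternative ways of processing the values in which it was tested. Genes with a mean under 5 TPM, such as Peli2, Pdk2, Tnfsf14 and Lpar5, were not tested under the alternative with that minimum. In bulk RNA, fewer cells of a type and less RNA per cell cannot be told apart.

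LPS, the outer membrane glycolipid of Gram-negative bacteria, is handed by CD14 to the TLR4 and MD-2 complex at the macrophage surface. The adaptor MyD88 then leads to NFκB and MAP kinases, which switch on cytokine, chemokine and enzyme genes together with their own inhibitors. From endosomes, the adaptor TRIF leads to type I interferon, whose receptor acts through JAK kinases and STAT proteins on a second wave of antiviral genes. Macrophages are also known to shut off part of their resting program, including lineage factors, surface receptors and lipid handling genes, and this lowered side is described here as fully as the induced side.

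LPS raised 677 genes (5.55% of the genes tested) and lowered 814 (6.68%). The median change was 1.55 among the raised genes and -1.29 among the lowered genes. The ratio of mean TPM was at least 16 for 41 raised and 20 lowered genes, and at least 32 for 23 and 10. Over all genes tested the median change was -0.17 (-0.07 and -0.26 without replicate 1 or 2 of NC), and the summed share of TPM held by the raised genes went from 2.75% and 2.41% in NC to 11.8% and 11.2% with LPS. Since TPM is scaled to a fixed total, calls were also made after every sample was centred on its median gene. These were 853 raised genes (7.00%) and 530 lowered genes (4.35%), and they held all 677 genes called raised without centring and 529 of the 814 called lowered. The balance between rises and falls therefore depends on the scaling, and list medians are read below against the median of -0.17.

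**Figure D1:**
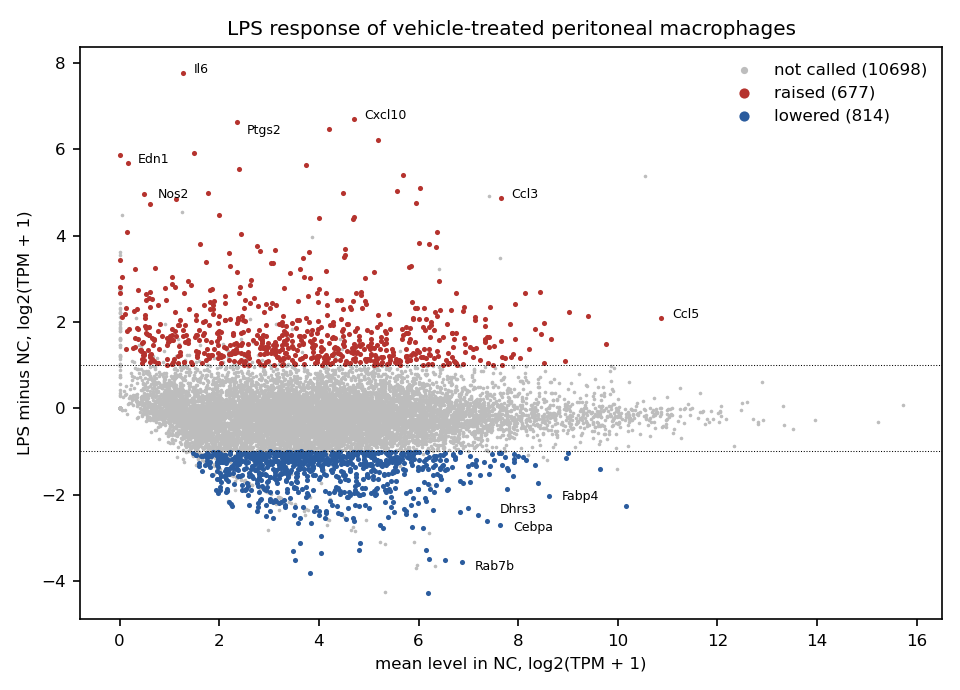
Change with LPS (y axis, LPS minus NC, log2(TPM + 1)) against the mean level in NC (x axis, log2(TPM + 1)) for the 12189 genes tested, with dotted lines at a fold change of 2. The 677 raised genes lie above the upper line and reach 7.77 for Il6, and the 814 lowered genes lie below the lower line, with Rab7b at -3.56.

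Among the 658 genes with under 1 TPM in NC, 80 were raised and 0 lowered, because a gene this low passed the level filter only through other groups and had little room to fall. Between 10 and 100 TPM in NC, 294 of 5693 genes were raised and 456 lowered. At 1000 TPM or more, 1 of 152 was raised (Ccl5, from 1683 and 2072 to 8066 and 7948 TPM) and 1 was lowered (mt-Atp6, from 1363 and 946 to 273 and 204 TPM, a mitochondrial gene that overlaps mt-Atp8). Among the 10 most abundant transcripts of each group, Ccl5 was the called gene. The ferritin heavy chain gene Fth1 was at 57177 and 50960 against 59316 and 55114 TPM and the lysozyme gene Lyz2 at 15989 and 15984 against 12790 and 13659 TPM, neither called. Saa3, an acute phase gene, was at 6610 and 8612 against 10804 and 12235 TPM (0.61, adjusted p = 0.0296), under the fold required. Not called despite a change of at least 2 in either direction were 62 genes, of which 55 were listed at 0 in at least 1 of the 4 samples.

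The cells carried the macrophage identity given in the labels. The summed level of 10 macrophage markers was 21088 and 20644 TPM in NC and 18402 and 18928 TPM with LPS. Most of each sum was Lyz2, at 15989 and 15984 TPM in NC and 12790 and 13659 TPM with LPS. Among the markers Cd14 was raised. Csf1r (355 and 272 against 182 and 208 TPM) and Fcgr1 (107 and 145 against 74.5 and 64.4 TPM) were lower with LPS but not called. Summed neutrophil markers lay at 82.4 and 135 TPM in NC and 97.6 and 123 TPM with LPS, with 4 of 10 at 0 in every sample. Most of this sum was S100a8, at 75.9 and 128 TPM in NC and 89.9 and 116 TPM with LPS. Summed fibroblast markers lay at 196 and 153 against 203 and 178 TPM. Among the markers of 11 other cell types, the single called gene was Klrk1 of the NK cell list, which rose from 0.74 and 0.41 to 3.91 and 3.85 TPM.

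The promoters of the genes that changed most are shown here because the raised genes include targets of both arms of the LPS pathway. RefSeq promoter sequences (GRCm38.p6, 250 bases before to 50 after the transcript start, gene strand) were matched by symbol for 9054 of 11885 tested genes. They were searched on both strands for GGGANTTTC, a short form of an NFκB site, and for GAAANNGAA, a short form of an interferon response element, and no stretch of letters can match both. Capitals mark the match, and in Edn1 the match is on the reverse strand. The first pair are the genes with the largest rises that held the NFκB-type letters, the second pair those that held the interferon-type letters, and the last pair, which held neither, are the most lowered of the named genes with a sequence in the table.
Il6, chr5:30012864-30013163, plus strand: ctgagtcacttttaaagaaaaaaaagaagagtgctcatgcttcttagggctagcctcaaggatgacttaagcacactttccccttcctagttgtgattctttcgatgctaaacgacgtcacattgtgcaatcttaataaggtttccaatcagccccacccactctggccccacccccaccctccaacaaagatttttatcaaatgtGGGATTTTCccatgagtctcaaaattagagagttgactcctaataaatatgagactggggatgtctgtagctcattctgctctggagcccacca
Cxcl2, chr5:90903649-90903948, plus strand: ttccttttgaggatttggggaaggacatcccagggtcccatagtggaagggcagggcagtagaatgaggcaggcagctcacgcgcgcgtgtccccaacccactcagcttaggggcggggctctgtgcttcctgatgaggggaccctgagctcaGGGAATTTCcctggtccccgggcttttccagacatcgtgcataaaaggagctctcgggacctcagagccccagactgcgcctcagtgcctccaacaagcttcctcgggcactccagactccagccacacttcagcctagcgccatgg
Cxcl10, chr5:92348840-92349139, minus strand: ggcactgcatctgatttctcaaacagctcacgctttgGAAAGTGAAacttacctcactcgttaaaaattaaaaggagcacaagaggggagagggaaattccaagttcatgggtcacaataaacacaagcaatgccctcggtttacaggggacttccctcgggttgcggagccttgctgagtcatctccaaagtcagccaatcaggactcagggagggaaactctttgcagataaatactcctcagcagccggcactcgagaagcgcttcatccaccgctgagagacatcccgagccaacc
Edn1, chr13:42301226-42301525, plus strand: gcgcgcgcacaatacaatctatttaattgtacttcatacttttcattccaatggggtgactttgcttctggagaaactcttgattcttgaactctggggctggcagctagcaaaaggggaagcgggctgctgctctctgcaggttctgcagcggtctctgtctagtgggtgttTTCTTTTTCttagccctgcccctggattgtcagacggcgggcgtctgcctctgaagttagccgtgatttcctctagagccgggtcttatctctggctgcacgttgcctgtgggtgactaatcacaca
Tmem86a, chr7:47050390-47050689, plus strand: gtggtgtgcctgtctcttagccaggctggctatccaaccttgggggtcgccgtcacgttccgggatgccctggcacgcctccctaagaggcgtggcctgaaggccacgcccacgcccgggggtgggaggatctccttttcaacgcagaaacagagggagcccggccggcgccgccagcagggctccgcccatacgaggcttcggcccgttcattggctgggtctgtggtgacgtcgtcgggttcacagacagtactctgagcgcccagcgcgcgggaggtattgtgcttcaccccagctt
Cd300lb, chr11:114934322-114934621, minus strand: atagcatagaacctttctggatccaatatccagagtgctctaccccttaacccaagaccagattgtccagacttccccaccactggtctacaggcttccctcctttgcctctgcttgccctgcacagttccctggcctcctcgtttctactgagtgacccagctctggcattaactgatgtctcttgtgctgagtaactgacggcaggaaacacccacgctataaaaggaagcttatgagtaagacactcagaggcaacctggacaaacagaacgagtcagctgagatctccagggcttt

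The first base of the match lay 44 bases before the start in Il6 and 97 in Cxcl2, and 213 in Cxcl10 and 77 in Edn1. The NFκB-type letters were found in 2.75% of the promoters of raised genes (13 of 472), 0.818% of those of lowered genes (5 of 611) and 1.25% of those of all tested genes. For the interferon-type letters these shares were 18.9% (89 of 472), 7.53% (46 of 611) and 8.94%. They reached 65.8% (25 of 38) among the raised members of a list of interferon response genes. Of the 8 raised chemokine genes with a sequence, 4 held the NFκB-type letters. So did 2 of 9 raised genes for NFκB subunits and inhibitors, 1 of 15 raised cytokine genes and 1 of 38 raised interferon response genes. The interferon-type letters were held by 3 of the chemokine, 2 of the NFκB and 2 of the cytokine genes. These are matches of letters in a window and no test was made on them.

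The 20 genes with the largest rises were Il6, Cxcl10, Ptgs2, Il1b, Cxcl2, Il12a, Edn1, Cxcl1, Il27, Tnf, Ccl4, Il1a, Nos2, Tnfsf15, Ccl3, Mir155hg, Cxcl3, Il12b, Cd69 and Gbp5. Their changes ran from 7.77 for Il6 to 4.43 for Gbp5. Edn1, which encodes the vasoconstrictor peptide endothelin-1, was nearly silent in NC at 0.14 and 0.10 TPM and reached 64.7 and 48.9 TPM with LPS (5.68, SE 0.19, adjusted p = 4.24e-06). Tnfsf15, a TNF family cytokine, rose from 0.45 and 0.34 to 45.8 and 39.8 TPM. Mir155hg, the host transcript of microRNA-155, rose from 1.18 and 1.23 to 55.4 and 70.7 TPM (4.85, SE 0.18, adjusted p = 6.74e-06). In each of these genes both LPS samples lay above both NC samples, as the choice of genes required. Over all tested genes this held for 2348 of 12189.

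**Figure D2:**
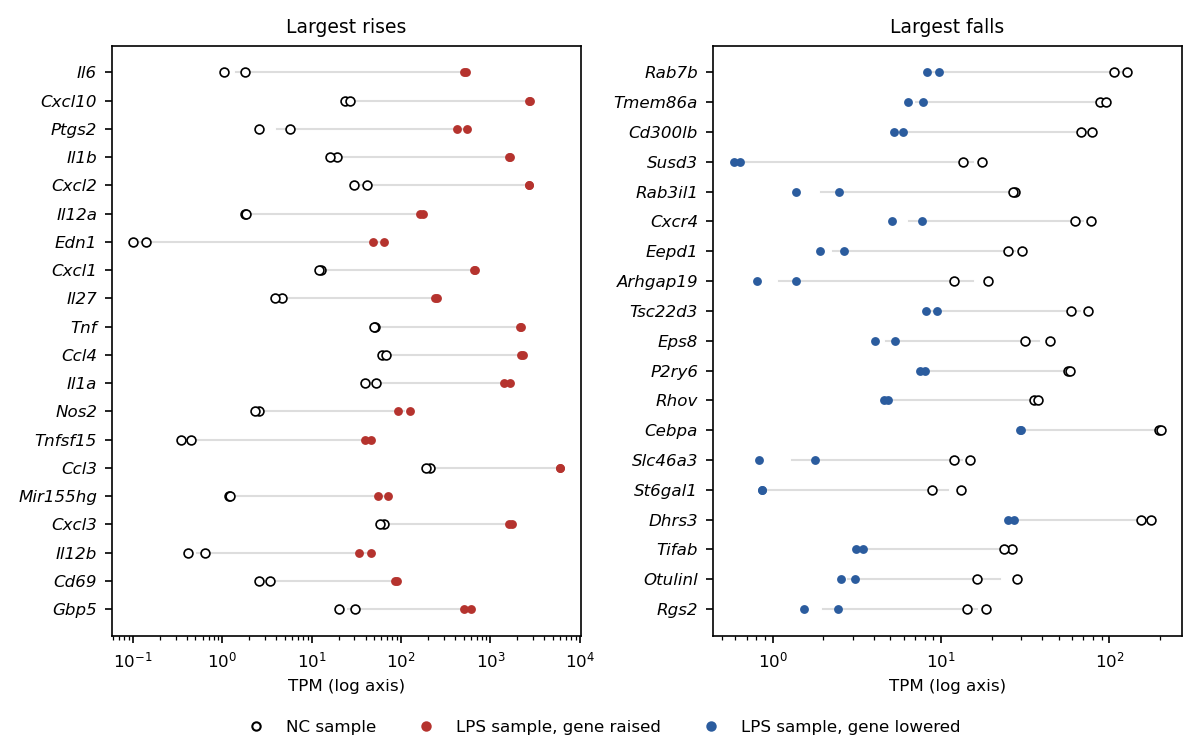
Level of 20 genes with the largest rises and 19 with the largest falls in every sample (TPM, log axis), with open circles for NC, filled circles for LPS and a grey line between the group means. In no gene do the 2 LPS samples overlap the 2 NC samples, which follows from how the genes were chosen. Rab7b spans 127 and 107 TPM in NC to 8.26 and 9.66 TPM with LPS.

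At the receptor itself the response was uneven. Of 34 tested genes for the LPS receptor, other Toll-like receptors and their adaptors, 7 were raised and 0 lowered, with a median change of 0.26 (0.63 without replicate 1 of NC and 0.06 without replicate 2 of NC). Cd14, the co-receptor that delivers LPS, rose from 235 and 252 to 1352 and 1250 TPM (2.41, SE 0.08, adjusted p = 4.24e-06). Tlr2, the receptor for bacterial lipopeptides, rose from 177 and 142 to 477 and 450 TPM, and its partner Tlr1 also rose (1.39). The adaptor Myd88 rose from 75.5 and 72.6 to 180 and 174 TPM, and Irak3, an inhibitory member of the IRAK kinases, rose from 40.2 and 29.8 to 101 and 93.6 TPM. Ly96, which encodes MD-2, was at 33.6 and 35.0 TPM in NC and 29.9 and 34.1 TPM with LPS and was not called, and neither was the TRIF gene Ticam1 (-0.08, adjusted p = 0.705). Without replicate 1 of NC, 12 members of this list were raised, and without replicate 2 of NC, 2 were lowered.

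Of 15 genes for NFκB subunits and inhibitors, 11 were raised and 0 lowered, with a median change of 1.71. Nfkbiz, which encodes the atypical inhibitor IκBζ, rose most, from 9.33 and 6.09 to 118 and 98.6 TPM (3.67, SE 0.20, adjusted p = 3.32e-05). Tnfaip3, the gene of the deubiquitinating brake A20, rose from 33.0 and 22.5 to 199 and 164 TPM. The precursor subunit genes Nfkb2 and Nfkb1 rose by 2.33 and 2.08, and the gene of the activating subunit Rela rose by 1.13. Relb was at 47.3 and 47.2 TPM in NC and 83.0 and 78.2 TPM with LPS, under the fold required, and Bcl3 was at 43.1 and 48.5 against 40.5 and 37.7 TPM. In a list of regulators of RNA decay and ubiquitin, which also holds other genes such as Nlrp3, 8 of 27 rose. Among them were Zc3h12a, which encodes the ribonuclease Regnase-1 (24.4 and 27.3 to 170 and 168 TPM), the adaptor gene Traf1 (22.2 and 21.2 to 258 and 251 TPM) and Peli1, an E3 ligase gene (19.2 and 10.1 to 102 and 86.3 TPM). Its relative Peli2 was the 1 lowered member (6.93 and 6.63 to 1.88 and 2.20 TPM), and without replicate 2 of NC 4 members were lowered. Nlrp3, the inflammasome sensor kept in the same list, rose from 15.0 and 8.71 to 149 and 127 TPM.

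Genes of the MAP kinase and AP-1 arm moved in both directions at 4 h, with 7 of 30 raised and 4 lowered. Maff, a small Maf factor, rose from 5.61 and 6.08 to 36.5 and 32 TPM, and Ier3, an early response gene, from 70.4 and 65.9 to 189 and 168 TPM. Immediate early genes, known for a brief rise soon after a stimulus, were mixed. Fos fell from 15.9 and 14.3 to 1.89 and 2.27 TPM (-2.39, SE 0.14, adjusted p = 4.76e-05), Jun from 94.7 and 77.7 to 27.6 and 26.2 TPM, and Egr2 from 28.3 and 22.7 to 8.49 and 5.12 TPM. Junb went from 160 and 175 to 346 and 347 TPM and was called (1.04), but not without replicate 1 of NC (0.98) or with quantile normalization (0.93). Egr1 was at 1.86 and 1.82 against 4.18 and 4.68 TPM and Dusp1, a phosphatase gene of MAP kinases, at 17.0 and 14.7 against 12.8 and 15.3 TPM, and neither was called.

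Of 43 tested cytokine genes (of 48 written), 22 were raised and 6 lowered, with a median change of 1.05. Beside the genes named above, Inhba, the gene of the activin A subunit, rose from 7.45 and 4.68 to 103 and 71.4 TPM, and Csf3, which encodes G-CSF, from 2.74 and 1.93 to 32.5 and 34.7 TPM. The interleukin 6 family cytokine Lif rose from 0.53 and 0.52 to 8.75 and 5.15 TPM, and the natural IL-1 antagonist Il1rn from 88.0 and 75.3 to 371 and 351 TPM. Il10, the anti-inflammatory cytokine, was low in all 4 samples, at 0.52 and 0.92 TPM in NC and 0.66 and 1.16 TPM with LPS, and was not called. The lowered cytokine genes were growth and lymphocyte factors: Pdgfa fell from 19.5 and 15.4 to 3.92 and 3.49 TPM (-1.96, SE 0.16, adjusted p = 0.000223) and Tnfsf14 from 3.52 and 2.57 to 0.12 and 0.14 TPM. Vegfa (-1.17), Il16 (-1.20), Tnfsf13 (-1.08) and Tnfsf13b (-1.24) were also called, but all 4 lost the call with quantile normalization. Vegfa also lost it without replicate 1 of NC (-0.93), Il16 and Tnfsf13b without replicate 2 of LPS (-0.996 and -0.952), and Tnfsf13b in the fit of NC and LPS only. Tnfsf13 lost it without replicate 2 of NC or replicate 1 of LPS (-0.79 and -0.86), after centring (-0.92), with no filter on low values and in the fit of NC and LPS only. Ifng, which is not in that list, rose from 0.88 and 1.15 to 5.65 and 5.22 TPM. The summed markers of NK cells, which are known to make interferon gamma, were 1.5 and 1.03 TPM in NC and 4.43 and 4.42 TPM with LPS, with Gzma, Klrb1c, Eomes and Prf1 below 0.35 TPM in every sample. The part of such cells in the Ifng values was not tested.

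Chemokine genes gave some of the most abundant induced transcripts, and together they took 0.438% and 0.493% of all TPM in NC and 2.82% and 2.84% with LPS. Of 22 tested (of 28 written), 13 were raised and 0 lowered, with a median of 1.63. Ccl3 and Ccl4, which encode the macrophage inflammatory proteins MIP-1α and MIP-1β, reached 5953 and 5940 TPM and 2195 and 2297 TPM. Ccl2, the main monocyte attractant, rose from 278 and 283 to 1883 and 1727 TPM, its neighbour Ccl7 from 51.8 and 61.8 to 562 and 563 TPM, and Ccl22 from 3.26 and 4.05 to 19.1 and 17.8 TPM. Cxcl9 rose from 1.17 and 0.83 to 5.22 and 4.57 TPM, a far lower level than that of its relative Cxcl10 (23.5 and 26.6 to 2716 and 2744 TPM).

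Of 46 tested genes for receptors of cytokines and chemokines, 4 were raised and 7 lowered, and the median was -0.14, which became 0.03 after centring. Cxcr4, the receptor for CXCL12, fell from 77.2 and 62.8 to 7.69 and 5.14 TPM (-3.27, SE 0.21, adjusted p = 7.19e-05). Ccr1, a receptor for CCL3, fell from 101 and 80.9 to 33.7 and 31.9 TPM, and Il6ra, the receptor subunit for IL-6, from 12.6 and 6.96 to 2.32 and 1.97 TPM. Ccrl2, an atypical receptor that binds chemerin, was the most raised, from 78.2 and 67.0 to 1090 and 963 TPM (3.80, SE 0.11, adjusted p = 2.35e-06). Il15ra (2.16) and the TNF receptor gene Tnfrsf1b (1.73) also rose.

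Of 73 tested interferon response genes, 48 were raised and 0 lowered, and the median change was 1.24. Ifi205, of the interferon-inducible HIN-200 family, rose from 26.6 and 22.9 to 571 and 499 TPM (4.38, SE 0.11, adjusted p = 1.43e-06). Rsad2, which encodes the antiviral enzyme viperin, rose from 96.8 and 66.9 to 1432 and 1345 TPM, and its neighbour Cmpk2, a nucleotide kinase gene, from 69.9 and 56.7 to 927 and 891 TPM. The antiviral GTPase gene Mx1 rose from 35.8 and 30.6 to 304 and 304 TPM, and Isg15, a ubiquitin-like modifier, from 503 and 535 to 2547 and 2369 TPM. The transcription factors of this arm were less uniform. Irf1 rose from 166 and 157 to 527 and 446 TPM, while Irf7, already high in NC, was at 862 and 1062 against 1039 and 1008 TPM (0.10, adjusted p = 0.587). In the JAK, STAT and SOCS list, 7 of 22 were raised and 0 lowered (1 without replicate 2 of NC). The feedback inhibitor genes Socs1 (11.5 and 14 to 85.6 and 78.9 TPM), Socs3 (65.5 and 61.8 to 283 and 254 TPM) and Cish (2.87 and 3.15 to 11.9 and 11.4 TPM) rose, as did Stat5a (18 and 13 to 65.9 and 53.1 TPM).

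Raised genes also stood side by side on the chromosomes. In the GENCODE M21 gene order, 10 runs of at least 4 neighbouring tested genes were all raised, with 47 genes in all, and 1 run of 5 genes was all lowered. The raised runs were mostly interferon-inducible families. On chromosome 1 they took in Ifi204, Mndal, Ifi211, Ifi203 and Ifi205 in one run and Ifi206, Ifi214, Ifi213, Ifi209 and Ifi208 in another. Others were the Gbp genes of chromosomes 3 and 5, the Trim30 genes of chromosome 7, the Phf11 genes of chromosome 14 and the Ifit genes of chromosome 19. The formyl peptide receptor genes Fpr1, Fpr2 and Fpr3 beside Has1 on chromosome 17 made a further run. The lowered run, on chromosome 1, held Vash2, Flvcr1, A230020J21Rik, Tatdn3 and Batf3. Members of these families share sequence, and how reads were split between near copies such as Ifit3 and Ifit3b is uncertain.

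**Figure D3:**
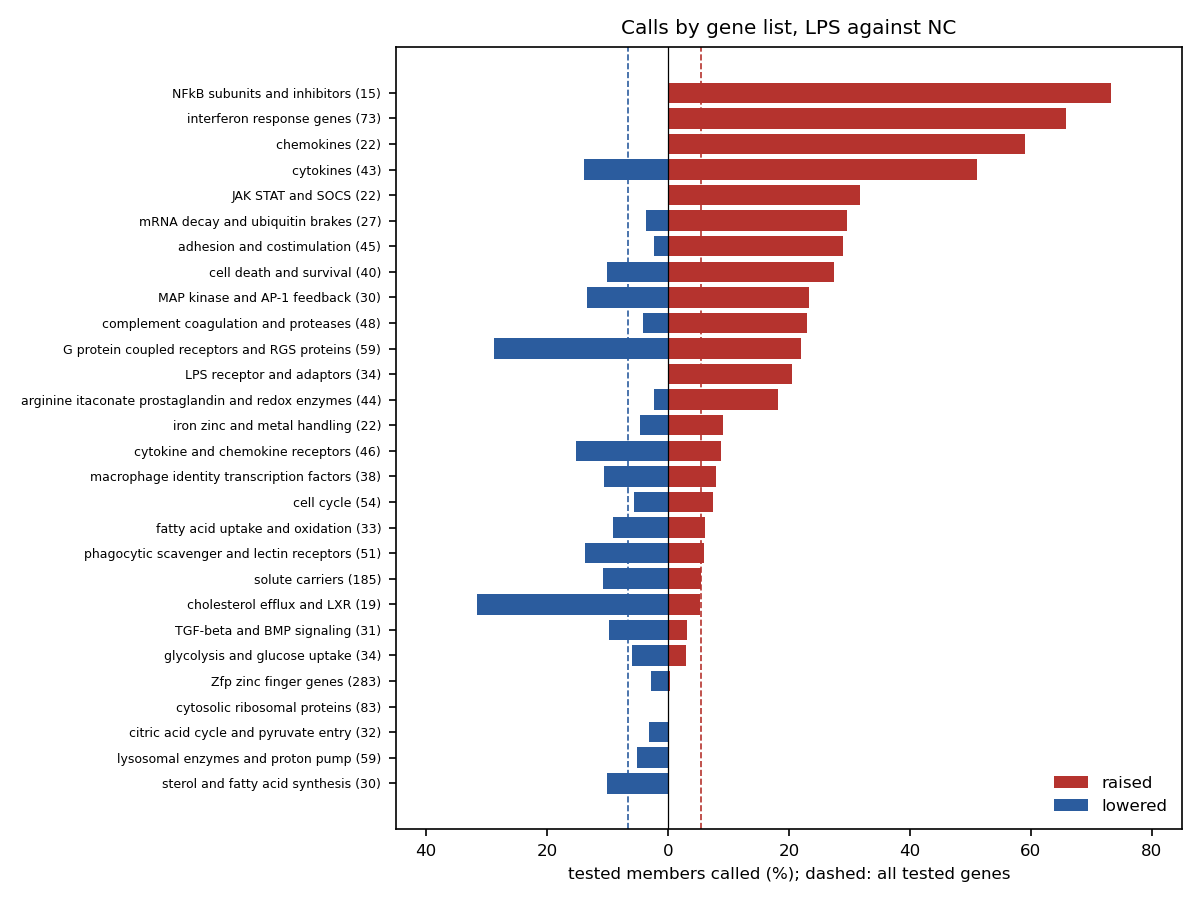
Share of tested members called raised (to the right) and lowered (to the left) in each gene list (%), with the number tested in parentheses and dashed lines at the shares over all tested genes, 5.55% and 6.68%. NFκB, interferon response, chemokine and cytokine lists reach furthest to the right, and G protein coupled receptors and cholesterol efflux genes reach furthest to the left.

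Among enzymes of arginine, itaconate, prostaglandin and redox metabolism, 8 of 44 were raised and 1 lowered, while the median was -0.01, turning to 0.16 after centring and 0.07 without replicate 1 of NC. The lowered count was 0 after centring, with quantile normalization, in the fit of NC and LPS only and without replicate 1 of either group, and 2 without replicate 2 of either group. Ptgs2, which encodes the inducible cyclooxygenase COX-2, rose from 5.64 and 2.54 to 549 and 425 TPM (6.64, SE 0.28, adjusted p = 1.23e-05), and Ptges, the prostaglandin E synthase acting after it, from 23.7 and 20.3 to 274 and 262 TPM. Nos2, the inducible nitric oxide synthase, rose from 2.54 and 2.32 to 126 and 91.4 TPM, together with the arginine carrier gene Slc7a2 (19.5 and 10.5 to 374 and 283 TPM) and Gch1, whose product makes its cofactor (60.8 and 63.0 to 153 and 166 TPM). The itaconate-producing enzyme Acod1 rose from 383 and 312 to 2334 and 2157 TPM, and the cystine carrier Slc7a11 from 17.4 and 8.54 to 180 and 144 TPM.

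In central carbon metabolism, 2.94% of the glycolysis and glucose uptake genes were raised and 5.88% lowered, against 5.55% and 6.68% of all tested genes. The lowered share of the citric acid cycle and pyruvate entry genes was 3.12%. Of 34 glycolysis and glucose uptake genes 1 was raised and 2 lowered (4 raised after centring and 5 without replicate 1 of NC), and of 32 citric acid cycle and pyruvate entry genes 0 were raised and 1 lowered (2 without replicate 2 of NC). Slc2a6, a sugar carrier gene of lysosomes, rose from 104 and 109 to 367 and 352 TPM. Idh1, the cytosolic NADP-linked isocitrate dehydrogenase, fell from 122 and 105 to 20.5 and 20.5 TPM (-2.41, SE 0.11, adjusted p = 1.71e-05). Pdk2, a kinase that blocks pyruvate dehydrogenase, fell from 4.98 and 7.2 to 0.41 and 0.83 TPM, and Pfkfb4, of fructose bisphosphate control, from 20.3 and 18.6 to 7.89 and 7.55 TPM. Hif1a was at 53.8 and 28.8 TPM in NC and 83.3 and 66.1 TPM with LPS and was not called. Ribosomal protein genes gave 0 calls of 83 and a median of -0.17 (-0.32 and -0.05 without replicate 1 or 2 of NC), the median of all genes.

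Among the lowered genes were transcription factors that shape the macrophage. Cebpa, a factor of myeloid differentiation, fell from 196 and 201 to 29.6 and 29.7 TPM (-2.71, SE 0.11, adjusted p = 8.86e-06), and Tfeb, a regulator of lysosomal genes, from 40.2 and 40.2 to 9.10 and 11.1 TPM. Other identity factors were not called: Spi1, which encodes PU.1, was at 417 and 483 against 461 and 454 TPM, Maf at 29.1 and 18.4 against 27.7 and 26.5 TPM, and Cebpb at 628 and 812 against 906 and 824 TPM. Over the whole list of 38, 3 were raised (7.89%) and 4 lowered (10.5%), against 5.55% and 6.68% of all tested genes. After centring 6 were raised and 3 lowered. The list median was -0.19 (-0.06 and -0.38 without replicate 1 or 2 of NC), near the -0.17 of all tested genes. The raised count moved when single samples were left out. Ets2 was the raised member that kept its call throughout (21.7 and 12.4 to 93.4 and 89.2 TPM).

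The other largest falls were in genes of varied functions. Rab7b, a small GTPase of late endosomes, fell from 127 and 107 to 8.26 and 9.66 TPM (-3.56, SE 0.13, adjusted p = 6.64e-06). Tmem86a, a lysoplasmalogenase gene, fell from 87.6 and 95.9 to 6.33 and 7.85 TPM, and Dhrs3, a retinaldehyde reductase gene, from 155 and 176 to 27.1 and 25.1 TPM. Tsc22d3, which encodes the glucocorticoid-induced leucine zipper GILZ, fell from 74.5 and 58.9 to 8.12 and 9.43 TPM. Susd3 fell from 17.6 and 13.5 to 0.64 and 0.59 TPM and St6gal1, a sialyltransferase gene, from 13.1 and 8.81 to 0.87 and 0.86 TPM. The GTPase-linked genes Rab3il1 (27.4 and 26.6 to 1.37 and 2.48 TPM), Arhgap19 (18.9 and 12 to 1.37 and 0.81 TPM) and Rhov (35.5 and 37.5 to 4.61 and 4.85 TPM) fell as well. Further genes with large falls were Cd300lb, Cxcr4, Eepd1, Eps8, P2ry6, Slc46a3, Tifab, Otulinl and Rgs2. In each of them both LPS samples lay below both NC samples, as the choice of genes required. Over all tested genes this held for 5141 of 12189.

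A list of surface receptors coupled to G proteins, with the RGS proteins that switch their signal off, had 13 raised and 17 lowered members of 59 tested (of 75 written). Cxcr4, described above, is not in this list. The raised genes included sensors of bacterial peptides and metabolites. Fpr1 and Fpr2, the formyl peptide receptors, rose from 87.1 and 72 to 389 and 367 TPM and from 208 and 191 to 612 and 564 TPM. Hcar2, the receptor for niacin and hydroxybutyrate, rose from 8.88 and 10.4 to 94.6 and 90.1 TPM, and Gpr84, a receptor for medium-chain fatty acids, from 16.5 and 13 to 87.9 and 82.0 TPM. The adenosine receptor gene Adora2a rose from 14.1 and 12.4 to 130 and 99.5 TPM and Adora2b also rose (1.81), while Adora3 fell (-1.25).

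Those lowered included P2ry6, the UDP receptor, which fell from 56.9 and 58.2 to 7.50 and 8.01 TPM (-2.74, SE 0.14, adjusted p = 2.75e-05). Rgs2, an inhibitor of Gq signaling, fell from 18.6 and 14.2 to 1.54 and 2.43 TPM, and the lysophosphatidic acid receptor gene Lpar5 from 9.04 and 5.90 to 0.34 and 0.53 TPM. Lpar6 fell from 9.15 and 5.03 to 0.57 and 1.14 TPM, but it lies inside the Rb1 gene, and reads of overlapping genes may not be told apart. The proton sensor Gpr65 fell from 24.1 and 15.6 to 2.93 and 2.65 TPM, S1pr1, the sphingosine phosphate receptor, from 13.7 and 7.07 to 2.28 and 1.90 TPM, and Ptger4, a receptor for prostaglandin E2, from 12.3 and 9.21 to 2.36 and 2.72 TPM. With genes of at least 5 TPM alone, 9 members were lowered.

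**Figure D4:**
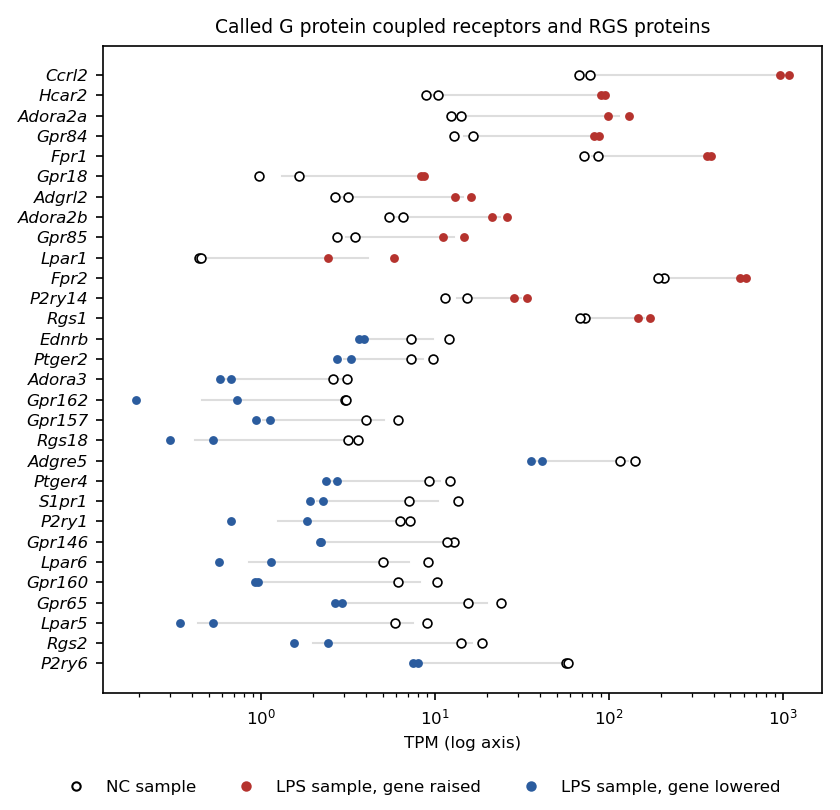
Level of the 30 called genes in the list of G protein coupled receptors and RGS proteins in every sample (TPM, log axis). Genes are ordered by the size of the change, with open circles for NC and filled circles for LPS. The list does not hold every such receptor, and Cxcr4 is not in it. The 13 raised genes stand at the top, led by Ccrl2, and the 17 lowered genes below, ending with P2ry6, which goes from 56.9 and 58.2 TPM to 7.50 and 8.01 TPM.

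Phagocytic, scavenger and lectin receptor genes had 3 raised (5.88%) and 7 lowered (13.7%) members of 51, against 5.55% and 6.68% of all tested genes. After centring these were 5 and 4, beside 7.00% and 4.35% of all tested genes. Genes of 3 CD300 receptors, which bind lipids of dying cells, fell: Cd300lb from 78.5 and 67.9 to 5.95 and 5.27 TPM (-3.49, SE 0.13, adjusted p = 6.64e-06), Cd300a from 41.2 and 40.3 to 6.19 and 6.36 TPM, and Cd300lf from 127 and 109 to 38.1 and 32.1 TPM. Axl, a receptor for apoptotic cells, and Olr1, the receptor for oxidized LDL, rose from 30.1 and 23.5 to 92.4 and 72.9 TPM and from 4.68 and 2.04 to 17.4 and 14.9 TPM. Mertk, the relative of Axl, was at 23.7 and 12.4 against 22.6 and 16.4 TPM, and the mannose receptor Mrc1 at 29.3 and 17.3 against 17.0 and 17.2 TPM; neither was called. Trem2, a lipid sensor, was at 803 and 947 against 514 and 555 TPM (-0.71, adjusted p = 0.00261), under the fold required.

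In the cholesterol efflux and LXR list 6 of 19 were lowered (31.6%, against 6.68% of all tested genes) and 1 raised (2 without replicate 1 of NC), and 3 were lowered after centring. Nceh1, a hydrolase of stored cholesterol esters, fell from 125 and 65.3 to 28.6 and 20.2 TPM, and the efflux pump Abcg1 from 55.8 and 36.7 to 18.0 and 14.2 TPM. Abca1 was at 36.7 and 12.6 against 33.7 and 24.0 TPM, a spread within NC larger than the change. Ch25h, which makes 25-hydroxycholesterol, rose from 4.33 and 3.91 to 46.6 and 42.3 TPM. The fatty acid list had 2 raised (6.06%) and 3 lowered (9.09%) of 33, near the shares over all tested genes, with a median of -0.55 (-0.38 after centring). In it Fabp4, the fatty acid carrier, fell from 368 and 418 to 92.0 and 98.0 TPM (-2.04, SE 0.09, adjusted p = 1.71e-05) and Pparg, the lipid-sensing nuclear receptor, from 25.0 and 22.0 to 5.23 and 5.50 TPM, while Acsl1, an acyl-CoA synthetase gene, rose from 104 and 73.2 to 298 and 258 TPM. Without replicate 2 of NC 6 members of the fatty acid list were lowered, and without either LPS sample 1 was raised. Of 30 genes of sterol and fatty acid synthesis 3 were lowered (2 after centring), with a list median of -0.11 that lies above the median of all genes. Among them was Dhcr7, of the last step to cholesterol (32.2 and 18.9 to 4.34 and 4.54 TPM).

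Of 65 genes annotated to the KEGG peroxisome pathway 13 were lowered (20%, against 6.68% of all tested genes) and 2 raised, but after centring these were 5 and 4. Paox, a polyamine oxidase gene, fell from 16.3 and 17.1 to 2.39 and 2.15 TPM, and the very long chain fatty acid transporter gene Abcd2 from 5.63 and 4.08 to 0.79 and 0.68 TPM. The 2 raised members were Nos2 and Acsl1, described above. Of 59 lysosomal enzyme and proton pump genes 0 were raised and 3 lowered (5.08%), and 53 had a lower estimate with LPS, against a shift of -0.17 over all genes (list median -0.31, -0.14 after centring). Sgsh, a heparan sulfate degrading enzyme, fell from 12.9 and 10.9 to 1.71 and 1.54 TPM, and the proton pump subunit Atp6v0a1 from 139 and 119 to 43.4 and 44.9 TPM.

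Of 185 solute carriers 10 were raised (5.41%) and 20 lowered (10.8%), against 5.55% and 6.68% of all tested genes. After centring these were 16 and 13, beside 7.00% and 4.35% of all tested genes. Amino acid transporters were on both sides. Against the rises of Slc7a2 and Slc7a11, Slc43a2, a carrier of branched-chain amino acids and methionine, fell from 65.2 and 38.0 to 8.62 and 9.47 TPM, and the proton-linked Slc36a1 from 48.3 and 30.6 to 10.4 and 8.27 TPM. Among 283 Zfp zinc finger genes 1 was raised (0.353%) and 8 lowered (2.83%), below the 5.55% and 6.68% of all tested genes. Their median was -0.24 (-0.08 and -0.42 without replicate 1 or 2 of NC), and the lowered count moved when single samples were left out.

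Of 45 adhesion and costimulation genes 13 were raised and 1 lowered (2 without replicate 2 of NC). Cd40, the receptor by which T cells activate macrophages, rose from 20.4 and 23.7 to 316 and 276 TPM (3.69, SE 0.13, adjusted p = 4.87e-06). Cd69 rose from 3.41 and 2.58 to 86.2 and 88.9 TPM, the adhesion molecule Icam1 from 106 and 97.0 to 376 and 311 TPM, and Cd274, which encodes the inhibitory ligand PD-L1, from 195 and 126 to 514 and 454 TPM. Cd86 was at 20.6 and 16.3 against 33.0 and 32.2 TPM and was not called (0.80, adjusted p = 0.00518). The lowered member was Cd200r1, an inhibitory receptor, which went from 70.6 and 54.6 to 22.1 and 22.8 TPM.

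Complement, coagulation and protease genes had 11 raised and 2 lowered members of 48. Serpinb2, the gene of plasminogen activator inhibitor 2, rose from 61.9 and 53.0 to 320 and 326 TPM, and F10, coagulation factor X, from 139 and 140 to 597 and 552 TPM. F3, tissue factor, rose from 1.86 and 0.98 to 8.10 and 6.72 TPM. The proteases moved both ways, Mmp13 rising from 4.70 and 2.98 to 15.7 and 14.1 TPM and Mmp19 falling from 36.0 and 28.4 to 11.0 and 11.2 TPM.

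Cell death and survival genes had 11 raised and 4 lowered members of 40. Bcl2a1d, of a group of near-identical survival genes among which reads may be shared, rose from 155 and 191 to 912 and 851 TPM, and Cflar, an inhibitor of caspase-8, from 82.6 and 52.6 to 268 and 223 TPM. Casp4, the mouse sensor of cytosolic LPS, rose from 59.1 and 56.9 to 151 and 136 TPM. The inflammasome adaptor gene Pycard fell from 204 and 278 to 89.2 and 112 TPM and the survival gene Bcl2l1 from 84.3 and 86.7 to 31.1 and 32.4 TPM.

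Of 54 cell cycle genes 4 were raised (7.41%) and 3 lowered (5.56%), shares near those over all tested genes, with Ccnd2, cyclin D2, rising from 1.04 and 0.78 to 11.0 and 8.95 TPM and Cdc25b, a mitotic phosphatase, falling from 5.57 and 4.70 to 1.68 and 0.68 TPM. Of 31 TGF-beta and BMP genes 1 was raised, Inhba, and 3 lowered (9.68%, against 6.68% of all tested genes). Tgfbi, a matrix protein gene induced by TGF-beta, fell from 254 and 184 to 58.8 and 58.6 TPM. Metal handling genes had 2 raised (9.09%) and 1 lowered members of 22. Mt2, a metallothionein gene, rose from 31.2 and 47.8 to 95.6 and 151 TPM, and Steap3, a ferrireductase gene, fell from 36.7 and 31.4 to 8.32 and 7.19 TPM. Counts this small moved with single samples: without replicate 1 of LPS, 2 cell cycle genes were raised and 1 lowered, and without replicate 2 of NC, 5 TGF-beta and BMP genes and 2 metal handling genes were lowered. Only 1 metal handling gene was raised without replicate 2 of NC or replicate 1 of LPS. Among long noncoding genes annotated as antisense or lincRNA, 19 of 305 were raised and 40 lowered, beside 5.55% and 6.68% of all tested genes. The library strand was not known.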

How the data were processed

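Libraries made from total RNA with a TruSeq RNA kit were sequenced on an Illumina NovaSeq, and the study's methods speak of fragmented mRNA. The labels name fastp, HISAT2, StringTie and RSEM as the tools. Gene levels were deposited as TPM, and the group means beside them were not used. The genome build and strand are not given in the sources used here. The study ran a count test. Since TPM keeps no depth, log2(TPM + 1) was fitted here with limma 3.58.1 (R 4.3.3), as 4 group means with a variance trend, on all 8 samples, for genes with a mean of at least 1 TPM. The thresholds of the study, a fold change of 2 and an adjusted p of 0.05, were kept. An exact two-sided permutation test of 2 samples against 2 cannot go below p = 0.333. The columns named NC were assigned to the samples titled CTRL, the vehicle group. Gene names come from the deposited table, and 11874 tested identifiers are in GENCODE M21, which gave gene types and gene order.

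Members and lists were chosen with earlier results of these data known, and lists are described by counts and medians without set tests. Named in the text are the 20 genes with the largest rise and the 20 with the largest fall among called genes with a symbol other than a clone or model number, a mean of at least 5 TPM in the higher group and samples that do not overlap, the most abundant genes, neighbouring runs, and called or defining members of the lists. A few genes are not reported here. The fit was tested on simulated data. Calculations used Python 3.11.15, numpy 2.4.6 and pandas 2.3.3, and figures matplotlib 3.10.9. Alternatives covered the pseudocount, the level filter, centring, quantile normalization, the variance model, the samples fitted, the fold threshold and a replicate block.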

Additional observations from a re-analysis of the deposited data

Results flagged for a closer look

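For 14 of the 20 genes with the largest rises and 0 of the 19 with the largest falls, the LPS change in vehicle-treated cells differed from that in cells given C498 before LPS (limma interaction term in the fit of all 8 samples, adjusted over the 12189 genes tested, with a fold of at least 2 between the changes). Over all genes tested, 57 (0.468%) differed this way. The genes were chosen for a large change in vehicle, which by itself favours a smaller change elsewhere, and all 20 raised and all 19 lowered genes had the smaller change with C498, whether or not the difference passed. The NC and LPS samples enter both the choice and the test, so these differences are not independent evidence.

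The difference, given as the LPS change with C498 minus that with vehicle in log2(TPM + 1), was -3.76 for the chemokine gene Cxcl2 (adjusted p = 0.0031), -2.68 for Ccl3, -2.55 for Cxcl10, -2.22 for Cxcl1, -2.18 for Ccl4 and -1.76 for Cxcl3. Among cytokine genes it was -2.36 for Il6 (adjusted p = 0.0128), -1.70 for Tnf, -1.36 for Il1b and -1.28 for Il12a, and it was -1.96 for Edn1, the endothelin-1 gene. The enzyme genes Ptgs2 and Nos2 gave -3.34 and -1.95 and the microRNA host gene Mir155hg -2.20.

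The smaller change did not always mean a lower final level. Ptgs2 was at 83.8 and 73.8 TPM with C498 alone, against 5.64 and 2.54 TPM in NC, and at 856 and 720 TPM with C498 and LPS, against 549 and 425 TPM with LPS. Cxcl2 was likewise at 755 and 646 TPM with C498 alone and at 4235 and 3503 TPM with C498 and LPS, above its 2678 and 2680 TPM with LPS. Cxcl1 (1407 and 1207 against 659 and 665 TPM) and Ccl4 (3057 and 2974 against 2195 and 2297 TPM) also ended higher. The levels of Ccl3 overlapped, and the remaining genes listed above ended lower. With C498 and no LPS, all genes listed above except Il12a lay above their NC levels. Ccl3, for example, was at 1339 and 1135 TPM against 212 and 190 TPM in NC. Il12a, by contrast, was at 1.08 and 0.99 TPM with C498 alone and at 53.3 and 46.2 TPM with C498 and LPS, below its 176 and 164 TPM with LPS.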

How the results depend on the processing

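The 39 genes named for the largest rises and falls all kept their direction and call under the 17 alternatives, while 429 of the 677 raised and 363 of the 814 lowered genes were called under every one in which they were tested (genes with a mean under 5 TPM were not tested at that minimum). Lowered genes numbered 530 after centring on the median gene and 510 with quantile normalization, with 853 and 767 raised. With no fold change threshold 1200 genes were raised and 2409 lowered. Leaving out 1 sample at a time gave 514 to 931 raised and 628 to 1078 lowered genes, and the median absolute difference between replicates was 0.295 in NC and 0.163 in LPS (log2). Of 70 list counts, 16 moved by over 1.5 times without replicate 2 of NC, 11 without replicate 1 of NC, 10 without replicate 1 of LPS and 4 without replicate 2 of LPS. With GGANTTTCC as the NFκB-type letters the shares of promoters were 6.36% of raised, 0.982% of lowered and 1.71% of all genes, and with GAAACNGAA as the interferon-type letters 6.14%, 2.45% and 2.24%. Runs of at least 3 neighbours numbered 26 raised and 11 lowered.

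The labels give the groups the same replicate numbers but do not say that they mark a shared mouse or day. Deviations of same-numbered samples correlated at 0.168 between NC and LPS and at 0.0397 between LPS and C498, so the numbers were not taken to pair the samples. A fit with the replicate block gave 696 raised and 841 lowered genes. The precision is limited by 2 samples a group and by the unknown depth.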
